A study of Mus musculus with 12 samples.

Results

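The genes described here are 36 genes of ribosome biogenesis, the assembly line that turns ribosomal RNA and ribosomal proteins into ribosomes. They were given as a list of symbols and read from the count table by the Ensembl identifiers of those symbols, a rule that uses no measured value. All 36 were found among the 55573 genes of the table, and all 36 passed the filter on low counts that left 19174 genes in the tests. Their levels were set beside that of Myc, one of the reprogramming factors and a regulator of this pathway. The libraries came from mouse embryonic fibroblasts (MEFs) of strain C57BL/6, grown from 3 embryos at the E13.5 stage that the labels number as clones 1, 2 and 3. All cells, controls included, carried i4F, a cassette from which doxycycline switches on Oct4, Sox2, Klf4 and Myc (OSKM). Each clone gave 1 library to each of 4 groups: MEF (no doxycycline, no added vitamin B12), MEF+B12 (2 µM B12), OSKM (doxycycline) and OSKM+B12 (both), all in iPS cell medium and harvested at 72 h. The labels give doxycycline at 1 µg/ml, whereas the methods of the study give 1 mg/ml for cultured cells. Doxycycline was given only to induced cells, so an effect of the drug and one of the factors cannot be told apart, and B12 was an addition to medium whose own B12 was not part of the design. The counts of Myc do not separate the cassette's copy from the endogenous gene.

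Ribosome production starts in the nucleolus, where RNA polymerase I copies the ribosomal DNA into a long precursor. Small nucleolar ribonucleoproteins (snoRNPs) of the box C/D kind guide methylation of this precursor and those of the box H/ACA kind guide conversion of uridine to pseudouridine, while large assemblies of helicases, GTPases and scaffold proteins cut and fold it into the small and the large subunit. Myc is a transcription factor known for binding the promoters of many of these genes and for raising ribosome output in dividing cells. The 36 genes were grouped by role into 5 for RNA polymerase I transcription, 4 nucleolar proteins that act at several steps, 4 of box C/D and 3 of box H/ACA snoRNPs, 7 of small subunit processing and 13 of large subunit assembly.

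The libraries held 56971244 to 79236795 counted read pairs, and the 36 genes together took 0.201% to 0.254% of them. The thinnest value among the 36 was 765 counts in one library (Rrp9) and the largest 35549 (Npm1). The fit of all genes gave a biological coefficient of variation of 8.04%, the spread between libraries left after the clone and group terms. The part of counting error in the precision of the members was not tested. The 12 fibroblast markers checked summed to between 88268 and 141897 CPM (read pairs per 1000000 counted, with scaled library totals) in every library, which matches the labelled cell type, and each of 10 pluripotency markers had a mean under 1 CPM in every group. The library of OSKM clone 1 stood apart from the other 11 over 1519 pseudogenes, with an SD of log2 differences from its clone of 0.556 against 0.114 to 0.247, while over protein-coding genes its SD of 0.263 was the highest by a small margin, the next being 0.259. Counts of members past the threshold are therefore also given without it. Some members share sequence with other genes, so that reads could be split or lost in counting. The share of 31-base words also found in other genes' transcripts was 65.5% for Ddx18, 34.8% for Pes1, 29.4% for Npm1, 22.4% for Nop56, 21.8% for Fbl, 19.9% for Noc2l, 15.8% for Rrs1 and 12.4% for Wdr12, and the values of these 8 genes are treated as less certain than those of the others. The words were matched without regard to strand. All shared words of Noc2l are also in Samd11, while 0% of the exonic bases of Noc2l overlap other genes on the same strand. Whether its strand-specific counts are affected was not tested.

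Promoters of the members were read first, because the list was to be set beside Myc, whose best known binding site is the E-box CACGTG. This motif reads the same on both strands. RefSeq promoter windows on GRCm38.p6, covering 250 bases before to 50 bases after each start, were matched for 31 of the 36. The letters CACGTG were present in 6 of the 31 windows (19.4%), against 8.09% of the 27025 genes in the promoter table and 11.1% of the 12110 of them that were in the tests. The 6 stretches that hold it are printed with 30 bases each, 5′ to 3′ on the strand of the gene, with the motif in capitals.
Mybbp1a (chr11:72441347-72441376, + strand): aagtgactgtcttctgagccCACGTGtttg
Nop2 (chr6:125131811-125131840, + strand): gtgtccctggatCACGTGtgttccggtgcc
Pes1 (chr11:3963965-3963994, + strand): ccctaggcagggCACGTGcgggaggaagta
Pno1 (chr11:17211540-17211569, - strand): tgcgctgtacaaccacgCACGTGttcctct
Utp20 (chr10:88826765-88826794, - strand): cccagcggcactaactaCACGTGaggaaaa
Wdr43 (chr17:71616220-71616249, + strand): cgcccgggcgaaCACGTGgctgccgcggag
The motif began 60 bases before the RefSeq start in Nop2, a methyltransferase of the large subunit, and between 3 and 41 bases after it in the other 5. Gene coordinates printed below are those of GENCODE, whose starts can differ from the RefSeq starts. Of the members that passed a test below and had a window, Wdr43 held the motif and Dkc1, Nop56, Nop58, Nop16, Heatr1 and Nhp2 did not. The median log2 fold change on induction, averaged over cells without and with B12, was 0.05 for the 6 members with the motif and 0.10 for the 25 without. With B12 the corresponding medians were 0.06 and 0.04. A match of letters is a description of the window, and its absence says only that these letters are not in this window.

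Levels differed between members far more than between groups. Per kilobase of the longest principal transcript, nucleophosmin (Npm1), the abundant nucleolar chaperone, had the highest level, 276.0 ± 21.8 CPM per kb (SD over 12 libraries), and each of its libraries lay above every library of the next gene. Fibrillarin (Fbl), the methyltransferase of box C/D snoRNPs, followed at 44.3 ± 3.59 CPM per kb and nucleolin (Ncl), an RNA-binding protein of the nucleolus, at 44.1 ± 1.83, and these neighbours overlapped. At the lower end were Polr1a, the largest subunit of RNA polymerase I, at 3.36 CPM per kb and Wdr12, a partner of Pes1 and Bop1, at 1.69 CPM per kb. The Wdr12 transcript used is 10012 bases long, and by CPM without length Wdr12 was at place 31. The order depends on the length used. Divided by all annotated exonic bases, Npm1 and Ncl were first and second, but Fbl fell from place 2 to place 17 and Nop58 from place 4 to place 26. Per kilobase of transcript, Myc was at 21.6 CPM per kb on average, between the members at places 12 and 13. Divided by all annotated exonic bases it was at 10.8 CPM per kb, between the members at places 18 (Nop16) and 19 (Gnl3). Both means of Myc pool induced and uninduced libraries, so its place describes neither state alone. The highest over the lowest library was 3.26-fold for Myc but between 1.13-fold (Ubtf) and 1.73-fold (Dkc1) for the 36 members.

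**Figure D1:**
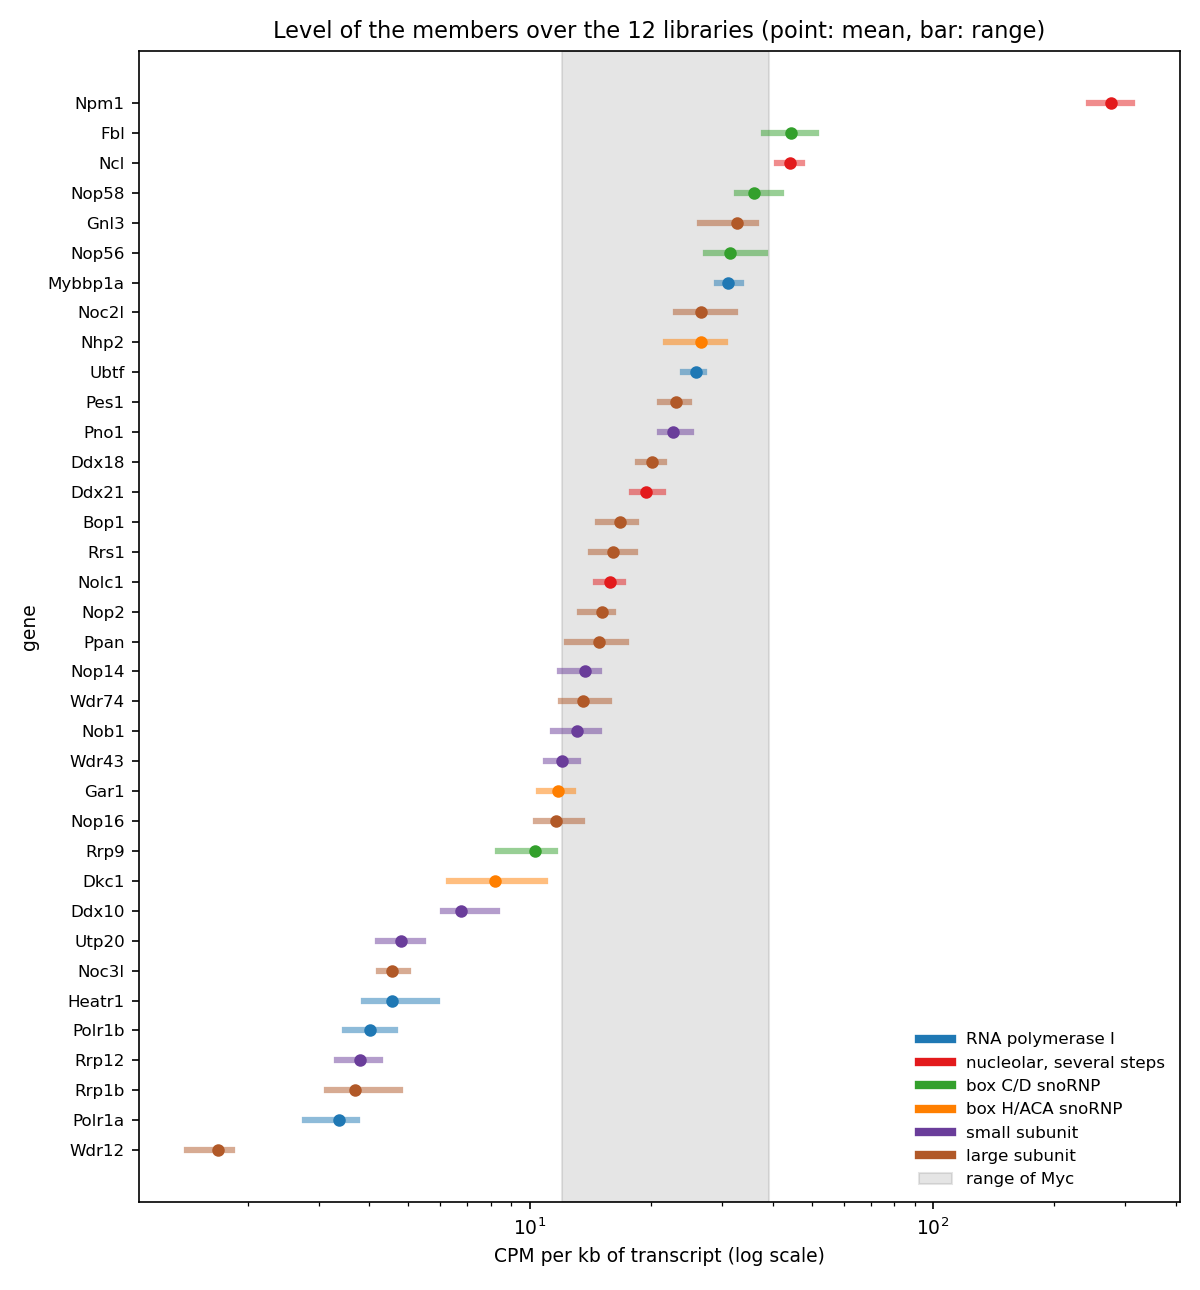
Level of each of the 36 members in CPM per kb of transcript on a log axis, with a point for the mean and a bar for the range over the 12 libraries, coloured by role, and a grey band for the range of Myc. Npm1 at 276.0 CPM per kb stands apart, and most members have bars that overlap with those of their neighbours.

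Myc was read next, since its own response is the measure that the members were set beside. It was at 22.5, 16.4 and 18.6 CPM in MEF (clones 1, 2 and 3), 23.3, 18.7 and 20.2 in MEF+B12, 53.4, 43.97 and 20.05 in OSKM against 50.4, 43.6 and 21.9 in OSKM+B12. Induced libraries of clones 1 and 2 were far above every uninduced library, whereas those of clone 3 lay within the uninduced range. The log2 differences between induced and uninduced libraries of one clone were 1.25, 1.42 and 0.11 without B12 and 1.11, 1.22 and 0.11 with B12. Averaged over both media Myc rose by a log2 fold change of 0.88 ± 0.17 (adjusted p = 0.0206), where ± is the standard error, from edgeR's quasi-likelihood test with Benjamini-Hochberg adjustment over all genes, the test behind every adjusted p here. The call was lost without clone 1 (0.72, adjusted p = 0.262) and without clone 2 (0.66, adjusted p = 0.426), and without the clone block (adjusted p = 0.187), and without clone 3 the value was 1.25. The response of Myc differed between clones (adjusted p = 0.000653 for the terms of clone by state). The other factors followed the same clones, with Pou5f1 (Oct4) at 18.5 to 20.7 CPM when clones 1 and 2 were induced against 2.34 and 2.86 CPM for clone 3, and Sox2 at 13.3 to 17.8 against 2.18 and 2.33 CPM. Klf4 was high throughout, at 118.5 to 143.3 CPM in the uninduced and 108 to 122.5 in the induced libraries, and fell by 0.12 on the log2 scale (adjusted p = 0.0452). B12 left Myc near its level, with log2 differences of -0.09 to 0.19 over 6 pairs and 0.06 ± 0.17 (adjusted p = 0.903).

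Of the other genes of the Myc family, Mxi1, which encodes an antagonist that competes for the partner Max, rose on induction by 0.33 ± 0.07 (adjusted p = 0.0256). Max, Mxd1, Mxd3, Mxd4, Mnt, Mycn and Mycl did not pass the threshold in the averaged comparison, and Mycn and Mycl stayed under 1 CPM in every library.

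Induction was associated with small upward differences across the members. In the average over both media 6 of the 36 passed the threshold, all higher in induced cells, which were Dkc1, Npm1, Nop56, Wdr43, Nop58 and Nop16. This share, 16.7%, stands beside 9.73% of all genes tested that passed in either direction and 4.46% that passed as higher. Over all genes 856 of 1865 calls were higher, and this split moved to 1496 of 2128 when library totals replaced the TMM scaling. Of the 36 members 32 had a positive log2 fold change (88.9%, beside 49.1% of all genes). Their median was 0.08 and their range -0.06 to 0.24, against a median of -0.003 over all genes tested. The largest member effect, that of Dkc1, corresponds to 1.18-fold, whereas Myc changed 1.84-fold. With library totals the median of all genes moved to 0.04 and that of the members to 0.13, so the distance between the medians stayed at 0.08, and 11 members passed. In bulk RNA, a change in the cells that make a transcript and a change in transcript per cell cannot be told apart.

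Within each medium alone fewer members were called. Myc itself did not pass in either medium by the same test. It had 0.94 ± 0.24 (adjusted p = 0.159) without B12 and 0.82 ± 0.24 (adjusted p = 0.181) with B12. Without B12, 0 of the 36 passed by edgeR, beside 0.073% of all genes, and 2 (Dkc1 and Npm1, 5.56%) passed by DESeq2, beside 2.57% of all genes in that fit. An unadjusted p under 0.05 was found for 11 members (30.6%) and for 19% of all genes. With B12, 0 passed by either tool, beside 0.104% of all genes by edgeR and 2.19% by DESeq2. Of the members 5 had an unadjusted p under 0.05 (13.9%), near the 14.9% of all genes. In each medium 31 of 36 members were higher in induced cells (86.1%, beside 48.0% and 50.6% of all genes), with medians of 0.10 and 0.07. With library totals these medians were 0.15 and 0.10. The first was 0.05 without clone 1 and 0.15 without clone 3, and the second was 0.04 without clone 2. In paired libraries of one clone, 9 members were higher in all 6 induction pairs, which is 25.0% of the members against 7.34% of all genes, and 0 members were lower in all 6, against 8.26% of all genes. The 9 were Ncl, Npm1, Nolc1, Nop56, Nop58, Dkc1, Nhp2, Wdr43 and Nop16.

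Calls over all genes, members included, changed with the clones in the fit. Without clone 1 or without clone 2, 0 members passed in the induction average, beside 0.0524% and 0.0155% of all genes, so that nearly all calls of the table were lost with those of the members. Without clone 3 the number was 8 (Dkc1, Fbl, Nop56, Nop58, Npm1, Polr1a, Ppan and Rrp1b), beside 15.9% of all genes in that fit. Without B12 and without clone 3, 5 members passed (Dkc1, Noc2l, Nop56, Npm1 and Ppan), beside 6.87% of all genes. When the library of OSKM clone 1 was left out, only Dkc1 passed (2.78% of the members), beside 3.95% of all genes. The titles of clone 1 hold a later year than those of the other clones, so the fit without clone 1 stays within a single title year, and the later year held 1 clone. Cell type and proliferation markers moved beside these calls. Of 12 fibroblast genes, 4 fell, Col1a1 by 0.35 on the log2 scale, and 1 rose, Fap with 0.23, while the list summed to 112902 to 141897 CPM in uninduced and 88268 to 117014 CPM in induced libraries. Of 15 proliferation genes, Mcm7, a subunit of the replicative helicase, passed with 0.18, and the list summed to 859 to 1095 CPM in uninduced and 866 to 1119.6 CPM in induced libraries. These ranges pool clones and media. In the induction average 14 of the 15 had a positive log2 fold change (93.3%), with a median of 0.06, so a mostly upward direction was not particular to the members. Of 13 macrophage genes, 4 fell, Aif1, a calcium-binding protein, by 0.51, and 1 rose, Itgam, an integrin subunit, with 0.37, and the list summed to 1289 to 3274 CPM in uninduced and 1320 to 2659 CPM in induced libraries. The part of these lists in the members' differences was not tested.

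**Figure D2:**
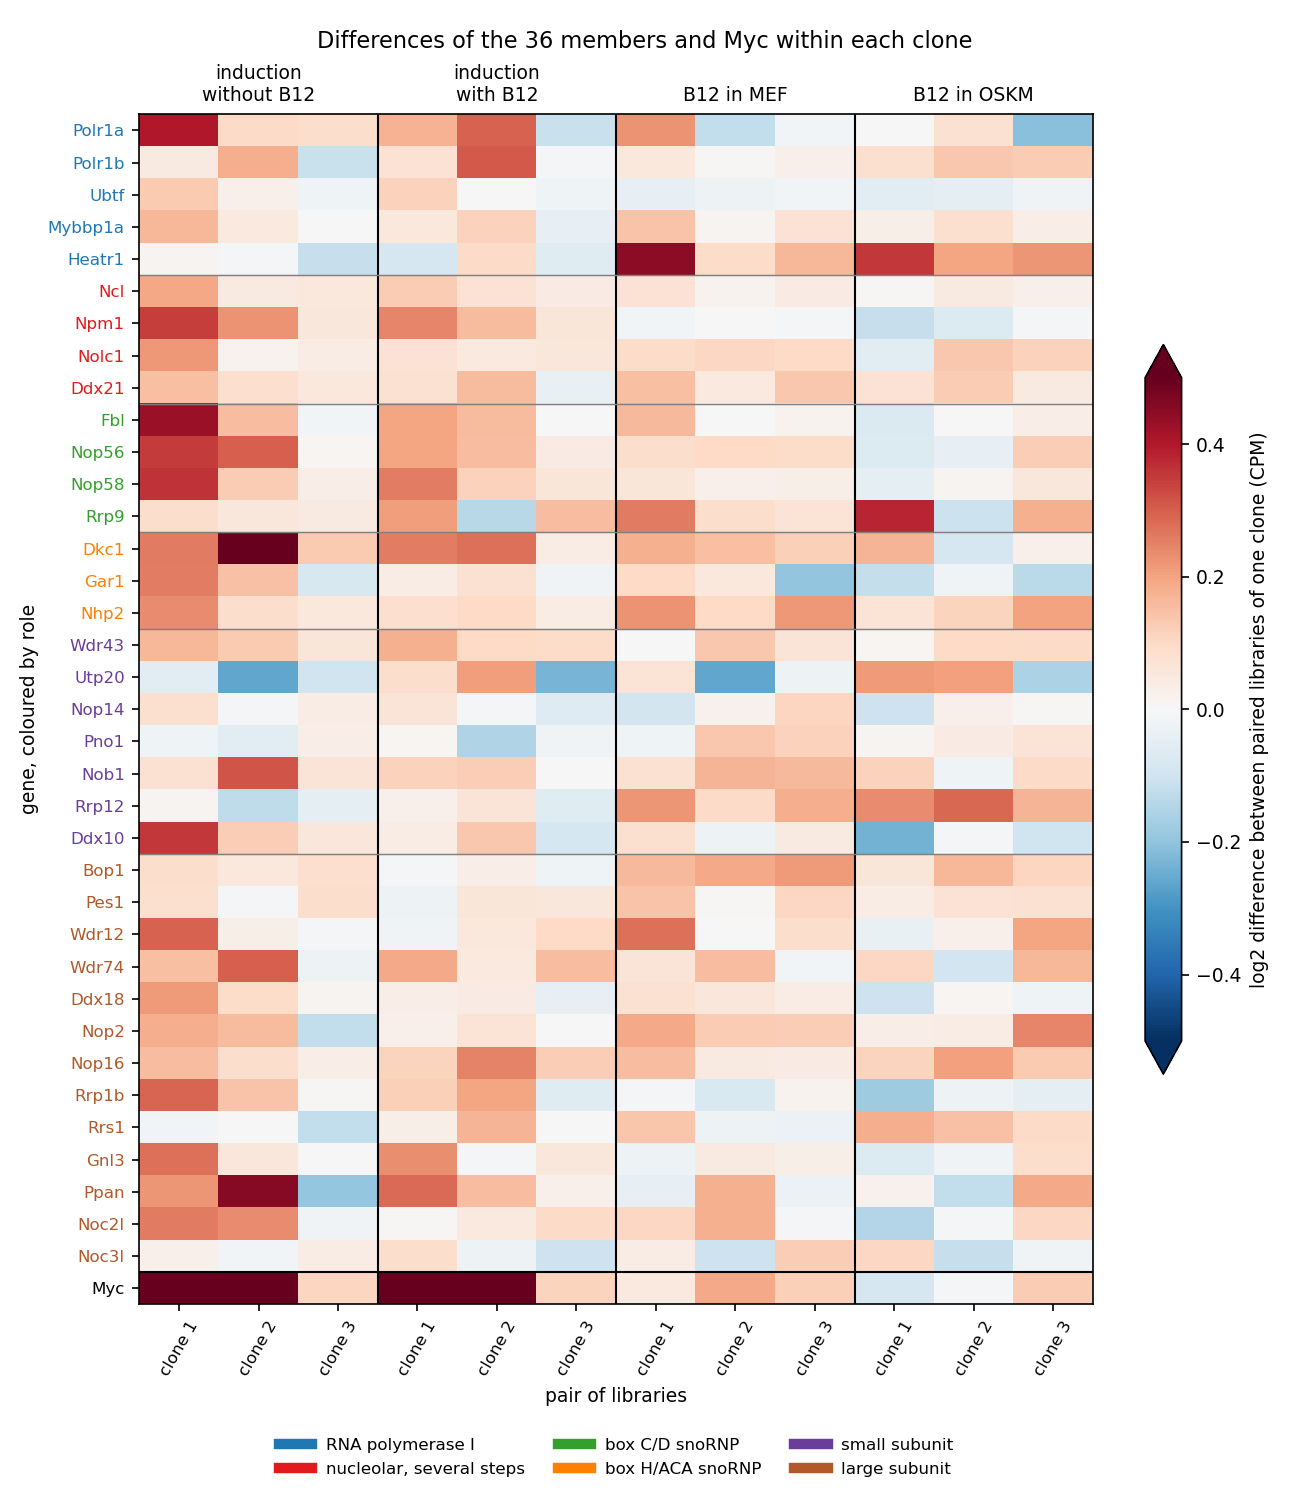
Log2 difference between 2 libraries of one clone for each of the 36 members and Myc (rows, grouped and coloured by role) in 12 pairs (columns), with red for higher in the induced or B12-treated library and blue for lower. The scale ends at 0.5, which Myc exceeds in both induction columns of clones 1 and 2, and the columns of clone 3 are paler for most members on induction.

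B12 was also associated with small upward differences. The B12 and induction comparisons share their libraries, so no overlap of their calls is given as a result. Averaged over uninduced and induced cells, 4 of the 36 passed, all higher with B12, which were Bop1, Rrp12, Heatr1 and Nhp2. The share of 11.1% stands beside 3.84% of all genes that passed in either direction and 3.46% that passed as higher. Of the 36 members 29 had a positive log2 fold change (80.6%, beside 44.9% of all genes). Their median was 0.06 and their range -0.06 to 0.25, against a median of -0.01 over all genes tested. In paired libraries 11 members were higher in all 6 B12 pairs (30.6%, against 8% of all genes) and 2, Ubtf and Npm1, were lower in all 6 (5.56%, against 7.64%). The 11 were Polr1b, Mybbp1a, Heatr1, Ncl, Ddx21, Nhp2, Rrp12, Bop1, Pes1, Nop2 and Nop16.

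In uninduced cells alone 1 of 36 passed (Bop1, log2 fold change 0.19 ± 0.04 (adjusted p = 0.049)), beside 1.38% of all genes, and Bop1 did not pass when any 1 clone was left out. In induced cells alone 0 passed by edgeR or DESeq2, beside 1.06% of all genes by edgeR, and 6 had an unadjusted p under 0.05 (16.7%), beside 9.82% of all genes. In the B12 average Bop1 alone passed without clone 1, beside 2.75% of all genes. Without clone 2 and without clone 3, 0 members passed, beside 0.176% and 1.65% of all genes, whereas 5 passed without the library of OSKM clone 1 (the 4 and Nolc1), beside 4.03%. Macrophage markers moved in the same comparison. Of 13 such genes 10 rose with B12, led by Fcgr1, a receptor for antibodies, with a log2 fold change of 0.95, and the list summed to 1289 to 2477 CPM without and 1938 to 3274 CPM with B12. In the proliferation list, Mcm5 and Pcna, both part of the replication machinery, rose with B12 by 0.24 and 0.17. They were the 2 of its 15 genes that passed (13.3%). Of the 15, 11 had a positive log2 fold change (73.3%), and the median was 0.07, so small upward differences with B12 were not particular to the members. The part of macrophage or dividing cells in the members' differences was not tested.

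**Figure D3:**
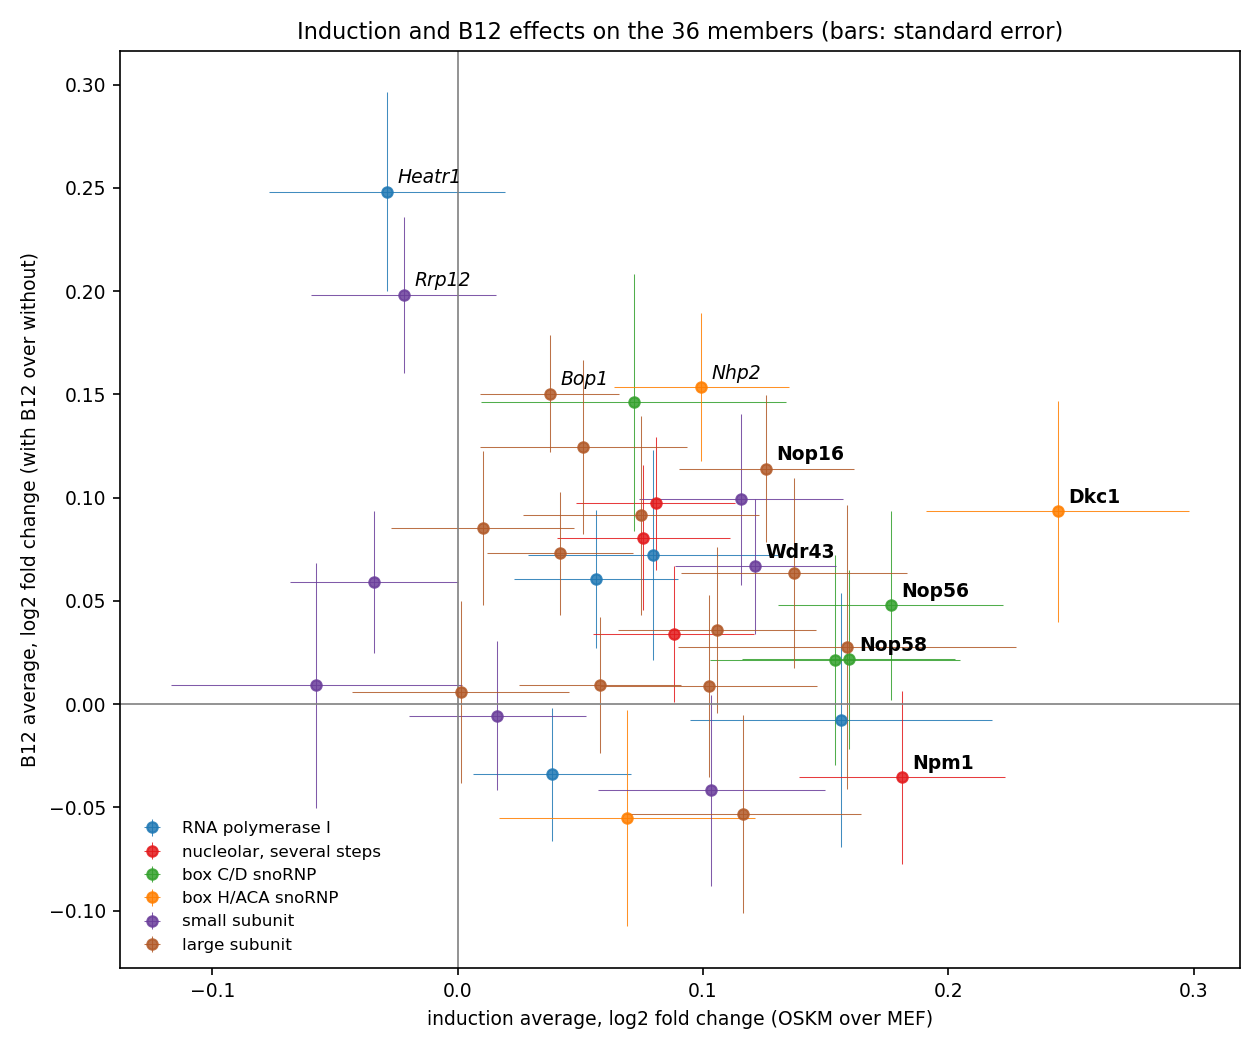
Log2 fold change on induction (horizontal axis) and with B12 (vertical axis), each averaged over the other factor, for the 36 members coloured by role, with bars of 1 standard error. The 6 members called on induction (bold) lie to the right, up to 0.24, and the 4 called with B12 (italic) lie at the top, up to 0.25.

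The genes of RNA polymerase I transcription showed 0 calls on induction and 1 with B12. Heatr1, a factor that links transcription of ribosomal DNA to the early processing complex (ENSMUSG00000050244, chr13:12395027-12440289), was at 29.2, 27.6 and 28.5 CPM in MEF and 39.8, 29.4 and 32.1 in MEF+B12 (clones 1, 2 and 3). It was at 29.4, 27.4 and 26.4 in OSKM against 37.6, 31.4 and 30.8 in OSKM+B12. In both states the libraries with B12 lay above those without, most in clone 1, and Heatr1 rose with B12 by 0.25 ± 0.05 (adjusted p = 0.0143) while its induction average was -0.03 ± 0.05. Mybbp1a, a nucleolar protein that interacts with the polymerase and the member of this role with the highest level per length, was at 127, 128 and 131 CPM in MEF, 140.4, 129 and 137 in MEF+B12, 143, 133 and 130.5 in OSKM against 146, 140.0 and 133 in OSKM+B12. Its groups overlapped in both comparisons, and it did not pass for induction (0.06 ± 0.03) or for B12 (0.06 ± 0.03). Polr1a had the smallest unadjusted p of this role on induction, at 25.6, 29.2 and 32.3 CPM in MEF, 29.9, 26.8 and 31.96 in MEF+B12, 33.8, 31.2 and 34.3 in OSKM against 33.8, 32.9 and 29.6 in OSKM+B12. Its induction average was 0.16 ± 0.06 (adjusted p = 0.133), not past the threshold, with a lower induced library in the pair of clone 3 with B12. Polr1b, the second largest subunit, and Ubtf, which binds ribosomal DNA beside the polymerase, had log2 fold changes of 0.08 and 0.04 on induction and 0.07 and -0.03 with B12, none past the threshold.

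Among nucleolar proteins of several steps Npm1 stood out by its level and its response. Npm1 (ENSMUSG00000057113, chr11:33152287-33163206) was at 401, 431 and 438 CPM in MEF and 509.8, 503 and 456 in OSKM, and at 398, 430.3 and 436 in MEF+B12 and 471, 479.7 and 454 in OSKM+B12. Every induced library lay above every uninduced one, and Npm1 rose by 0.18 ± 0.04 (adjusted p = 0.0289). With B12 it was lower in all 6 pairs but by little, -0.04 ± 0.04 (adjusted p = 0.736). Ddx21, an RNA helicase of the nucleolus, was the nearest to the B12 threshold in this role, at 86.3, 85.9 and 84.8 CPM in MEF, 95.8, 88.99 and 93.2 in MEF+B12, 95.96, 90.98 and 88.03 in OSKM against 101, 99.3 and 90.7 in OSKM+B12. It was higher with B12 in all 6 pairs, by 0.10 ± 0.03 (adjusted p = 0.158), which did not pass. Nucleolin ranged from 337 to 387 CPM over the 12 libraries and was higher in all 6 induction pairs by 0.09 on average (adjusted p = 0.115). Nolc1, a chaperone of snoRNPs, ranged from 53.0 to 61.9 CPM and was also higher in all 6 induction pairs, by 0.08 (adjusted p = 0.198).

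Box C/D snoRNP proteins had the largest median of any role on induction, 0.16 over 4 genes, of which 2 passed. Nop56 and Nop58 are paired scaffold proteins of these particles. Nop56 (ENSMUSG00000027405, chr2:130274430-130279313) was at 56.2, 52.6 and 51.4 CPM in MEF and 71.7, 64.8 and 51.7 in OSKM, and at 59.7, 56.4 and 54.8 in MEF+B12 and 68.4, 62.9 and 56.4 in OSKM+B12. Clones 1 and 2 were clearly higher when induced while the induced libraries of clone 3 lay within the uninduced range, and the averaged change was 0.18 ± 0.05 (adjusted p = 0.0384). Nop58 (ENSMUSG00000026020, chr1:59684971-59719044) was at 55.98, 58.03 and 57.9 CPM in MEF and 71.97, 63.3 and 59.2 in OSKM, and at 58.4, 58.99 and 59.00 in MEF+B12 and 69.7, 63.9 and 61.6 in OSKM+B12. Its induced and uninduced groups did not overlap in either medium, by a small margin in clone 3, and it rose by 0.16 ± 0.04 (adjusted p = 0.0442). Both are host genes of small nucleolar RNAs, and 8.0% of the exonic bases of Nop56 and 0.78% of those of Nop58 overlap other genes on the same strand. In other roles such overlaps were 4.12% for Ppan, 3.85% for Gnl3 and 2.12% for Ncl. Small nucleolar RNA genes also lie within Ppan, Gnl3, Ncl, Dkc1 and Wdr43. Fibrillarin, the enzyme of the particle, was at 45.5, 50.7 and 51.4 CPM in MEF, 50.9, 50.6 and 51.97 in MEF+B12, 61.3, 56.4 and 50.9 in OSKM against 58.4, 56.4 and 52.1 in OSKM+B12. The libraries of OSKM clones 1 and 2 lay above all of MEF but OSKM clone 3 did not, and the average of 0.15 ± 0.05 (adjusted p = 0.0802) did not pass. Rrp9, a protein of the U3 particle, was at 13.3, 16.9 and 15.4 CPM in MEF, 15.9, 17.98 and 16.1 in MEF+B12, 14.1, 17.6 and 15.9 in OSKM against 18.4, 16.3 and 17.9 in OSKM+B12. It was the member of this role nearest to the B12 threshold, with 0.15 ± 0.06 (adjusted p = 0.288), and the pair of OSKM libraries of clone 2 went the other way.

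Box H/ACA snoRNP proteins gave 1 call in each comparison. Dyskerin (Dkc1, ENSMUSG00000031403, chrX:75095854-75109777), the pseudouridine synthase of these particles and a component of telomerase, was at 22.7, 17.6 and 19.4 CPM in MEF and 27.2, 25.1 and 21.2 in OSKM, and at 25.7, 19.6 and 21.1 in MEF+B12 and 30.6, 23.7 and 21.6 in OSKM+B12. All 6 induction pairs were higher, the groups overlapped, and the rise of 0.24 ± 0.05 (adjusted p = 0.0255) was the largest of the 36 members on induction. With B12 its average was 0.09 ± 0.05 (adjusted p = 0.447). Nhp2 (ENSMUSG00000001056, chr11:51619735-51623714), a small protein of the same core, was at 22.7, 27.7 and 24.95 CPM in MEF and 26.4, 29.7 and 29.04 in MEF+B12, and at 26.7, 29.5 and 25.9 in OSKM against 28.04, 31.8 and 29.8 in OSKM+B12. Each clone was higher with B12 in both states although the groups overlapped, and Nhp2 rose by 0.15 ± 0.04 (adjusted p = 0.0389). On induction it was higher in all 6 pairs, by 0.10 ± 0.04 (adjusted p = 0.104), which did not pass. Gar1, the third core protein here, ranged from 13.4 to 16.2 CPM and had 0.07 on induction and -0.06 with B12, neither past the threshold.

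Small subunit processing factors had the lowest median on induction, 0.02 over 7 genes, with 1 call in each comparison. Wdr43 (ENSMUSG00000041057, chr17:71615895-71659031), a component of the first complex to join the nascent precursor, was at 40.1, 38.2 and 37.8 CPM in MEF and 45.1, 41.9 and 39.4 in OSKM, and at 40.05, 41.99 and 39.5 in MEF+B12 and 45.3, 44.9 and 42.03 in OSKM+B12. It was higher in all 6 induction pairs and rose by 0.12 ± 0.03 (adjusted p = 0.0435). Rrp12 (ENSMUSG00000035049, chr19:41862851-41896173), which acts in maturation and export of the particle, was at 15.5, 15.8 and 15.5 CPM in MEF and 18.1, 16.8 and 17.6 in MEF+B12, and at 15.7, 14.5 and 14.97 in OSKM against 18.5, 17.6 and 16.9 in OSKM+B12. All 6 libraries with B12 lay above all 6 without, and Rrp12 rose with B12 by 0.20 ± 0.04 (adjusted p = 0.0126), while on induction it had -0.02 ± 0.04. Pno1, an assembly factor that works beside the endonuclease Nob1, had the highest level per length of this role, at 32.96, 35.4 and 34.7 CPM in MEF, 32.5, 38.9 and 37.7 in MEF+B12, 32.4, 34.04 and 35.5 in OSKM against 32.7, 35.01 and 37.2 in OSKM+B12. Its groups overlapped and its averages were -0.03 ± 0.03 and 0.06 ± 0.03. Nob1 itself had 0.12 on induction (adjusted p = 0.103) and 0.10 with B12 (adjusted p = 0.276). Utp20, Nop14 and the helicase Ddx10 had log2 fold changes of -0.06, 0.02 and 0.10 on induction and 0.01, -0.01 and -0.04 with B12, and none passed.

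All 13 large subunit factors had a positive log2 fold change on induction, from 0.001 (Noc3l) to 0.16 (Ppan), and 1 passed. Nop16 (ENSMUSG00000025869, chr13:54584185-54590090), a nucleolar assembly factor, was at 19.7, 18.2 and 19.02 CPM in MEF and 21.9, 19.4 and 19.5 in OSKM, and at 21.9, 18.8 and 19.6 in MEF+B12 and 23.6, 22.3 and 21.3 in OSKM+B12. The groups overlapped but all 6 induction pairs and all 6 B12 pairs were higher, and the averages were 0.13 ± 0.04 (adjusted p = 0.0497) for induction and 0.11 ± 0.04 (adjusted p = 0.131) for B12, of which the first passed. Bop1 (ENSMUSG00000022557, chr15:76452989-76477277), which forms a complex with Pes1 and Wdr12, was at 40.8, 37.9 and 36.7 CPM in MEF and 45.6, 43.2 and 42.6 in MEF+B12, and at 43.4, 39.3 and 38.9 in OSKM against 45.3, 44.2 and 41.9 in OSKM+B12. MEF and MEF+B12 did not overlap, OSKM and OSKM+B12 did, and Bop1 rose with B12 by 0.15 ± 0.03 (adjusted p = 0.0119). Its partners did not pass, with 0.07 for Pes1 (adjusted p = 0.262) and 0.09 for Wdr12 (adjusted p = 0.403). Gnl3 (nucleostemin), a GTPase of the nucleolus with the highest level per length of this role, was at 52.3, 68.1 and 62.9 CPM in MEF, 51.4, 70.2 and 64.2 in MEF+B12, 63.2, 70.8 and 62.9 in OSKM against 60.3, 69.97 and 66.9 in OSKM+B12. It was lowest in the uninduced libraries of clone 1, its groups overlapped, and 0.10 ± 0.04 (adjusted p = 0.168) on induction did not pass. The other 8 were Wdr74, Ddx18, Nop2, Rrp1b, Rrs1, Ppan, Noc2l and Noc3l, with 0.001 to 0.16 on induction and -0.05 (Rrp1b) to 0.12 (Nop2) with B12, none past the threshold.

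**Figure D4:**
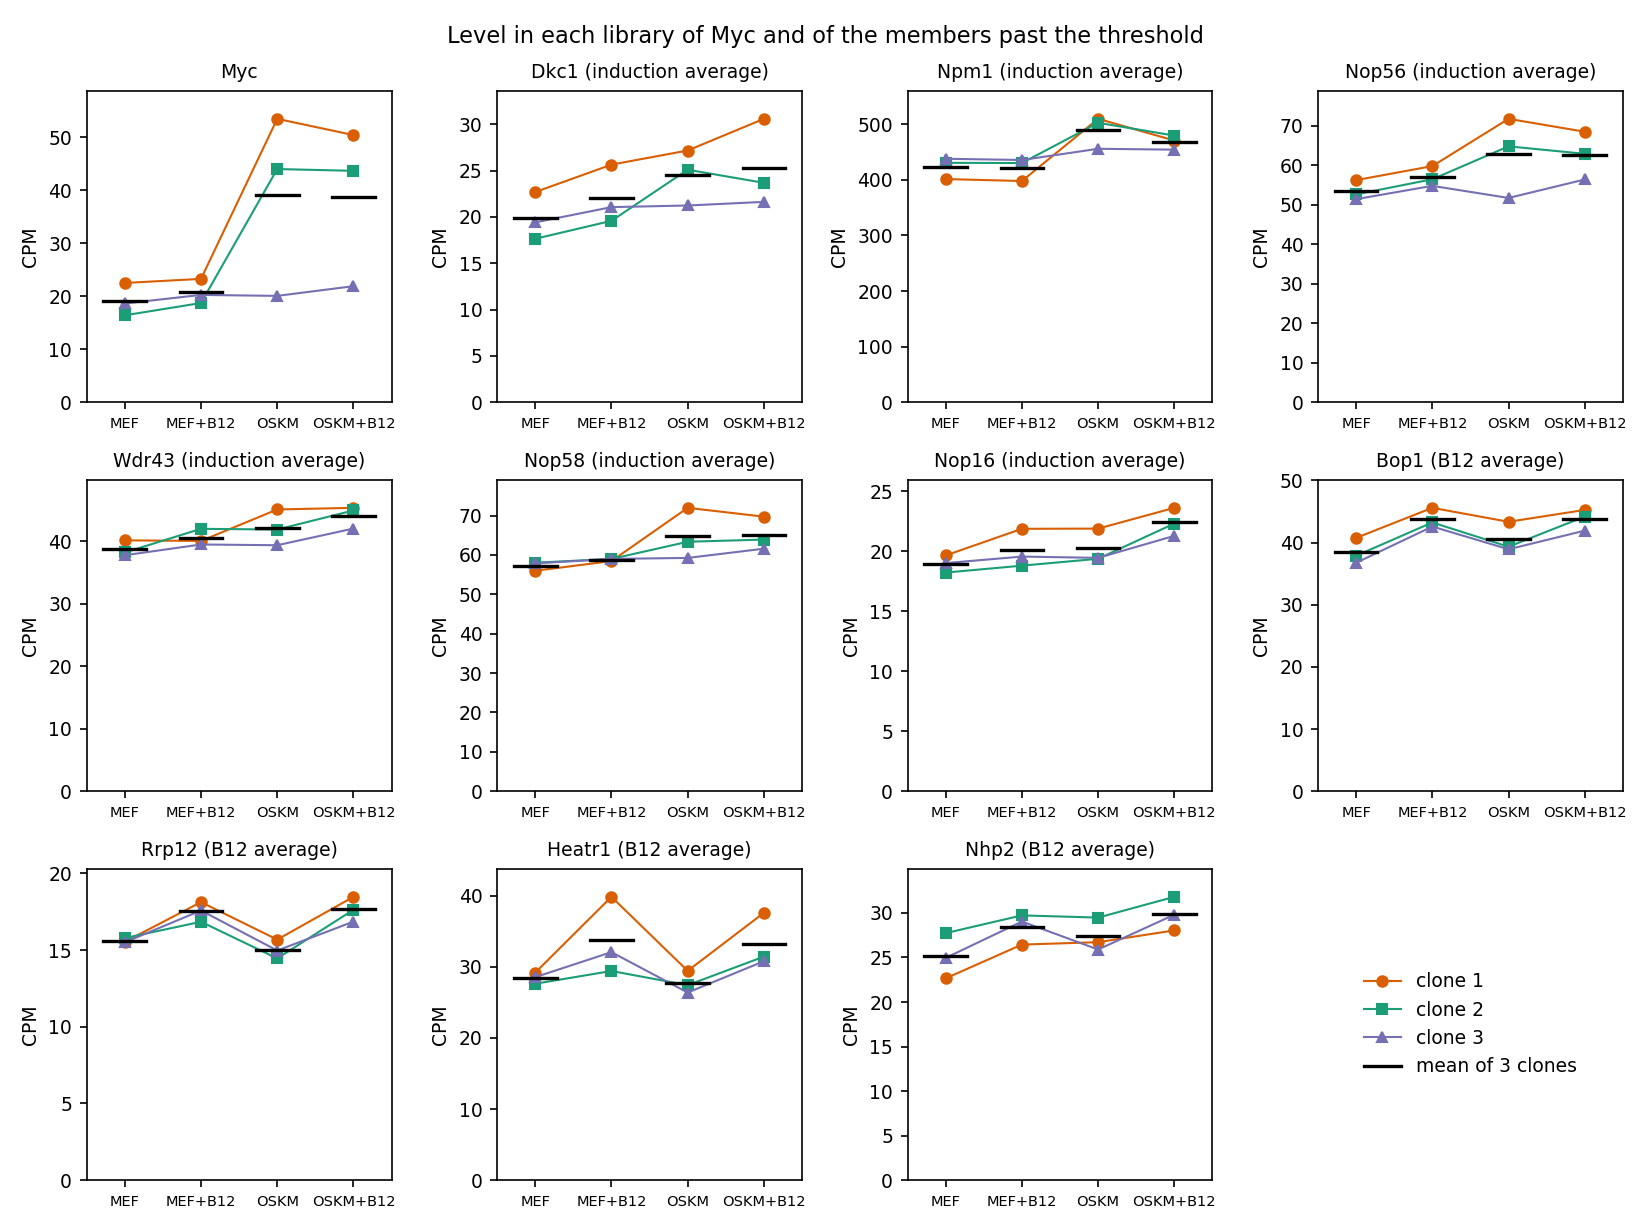
CPM on linear axes from 0 in the 4 groups for Myc and the 10 members past the threshold in an averaged comparison (named in each title), with a line for each clone that joins its 4 libraries and a black bar for the mean of 3 clones. The induced libraries of Myc reach 43.6 to 53.4 CPM in clones 1 and 2 and 20.0 to 21.9 CPM in clone 3, whereas each member moves by a small part of its level.

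Clone 3 had the smallest rise of Myc on induction. It had the lowest mean difference for 30 of 36 members (83.3%), against 35.1% of all genes tested. These shares depend on direction and are not alike, since 32 of 36 members but 49.1% of all genes had a positive induction average. The highest mean difference was in clone 2 for Myc and for 12 members and in clone 1 for 22 members. The median log2 difference of the 36 members on induction was 0.17 in clone 1, 0.09 in clone 2 and 0.02 in clone 3 without B12, and 0.09, 0.10 and 0.001 with B12, beside the Myc differences given above. The numbers of members higher in the induced library were 33, 29 and 21 of 36 without B12 and 32, 31 and 18 with B12. Of all genes, 47.6%, 50.2% and 48.2% were higher without B12 and 48.7%, 50.5% and 50.4% with B12. The summed CPM of the 36 rose from 2075 to 2416, from 2154 to 2324 and from 2157 to 2192 in clones 1, 2 and 3 without B12, which are changes of 16.4%, 7.87% and 1.61%. With B12 the same changes were 9.25%, 7.11% and 1.29%. These sums weigh most on Npm1 and Ncl, the members of highest CPM, and Npm1 is among the less certain genes. The 16.4% includes the library of OSKM clone 1, which stood apart. Without regard to direction, clone 3 had the smallest absolute mean difference for 22 members (61.1%), close to the 58.5% of all genes. Members of one library share that library, and 3 clones are the replicates behind these counts.

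The direct test of a difference between clones did not single out a member. In the F test of clone by state 0 of 36 passed by edgeR and by DESeq2, beside 2.15% of all genes by edgeR, and the smallest adjusted p was 0.162 (Nop58). An unadjusted p under 0.05 was found for 8 members (22.2%) and for 14.8% of all genes. The 8 were Nop58, Fbl, Polr1b, Npm1, Ppan, Gnl3, Nop56 and Dkc1. Fbl, for example, differed by 0.43, 0.15 and -0.01 in clones 1, 2 and 3 without B12 and by 0.20, 0.16 and 0.003 with B12. Ppan, a large subunit factor, differed by 0.22, 0.46 and -0.19 and by 0.28, 0.15 and 0.03.

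**Figure D5:**
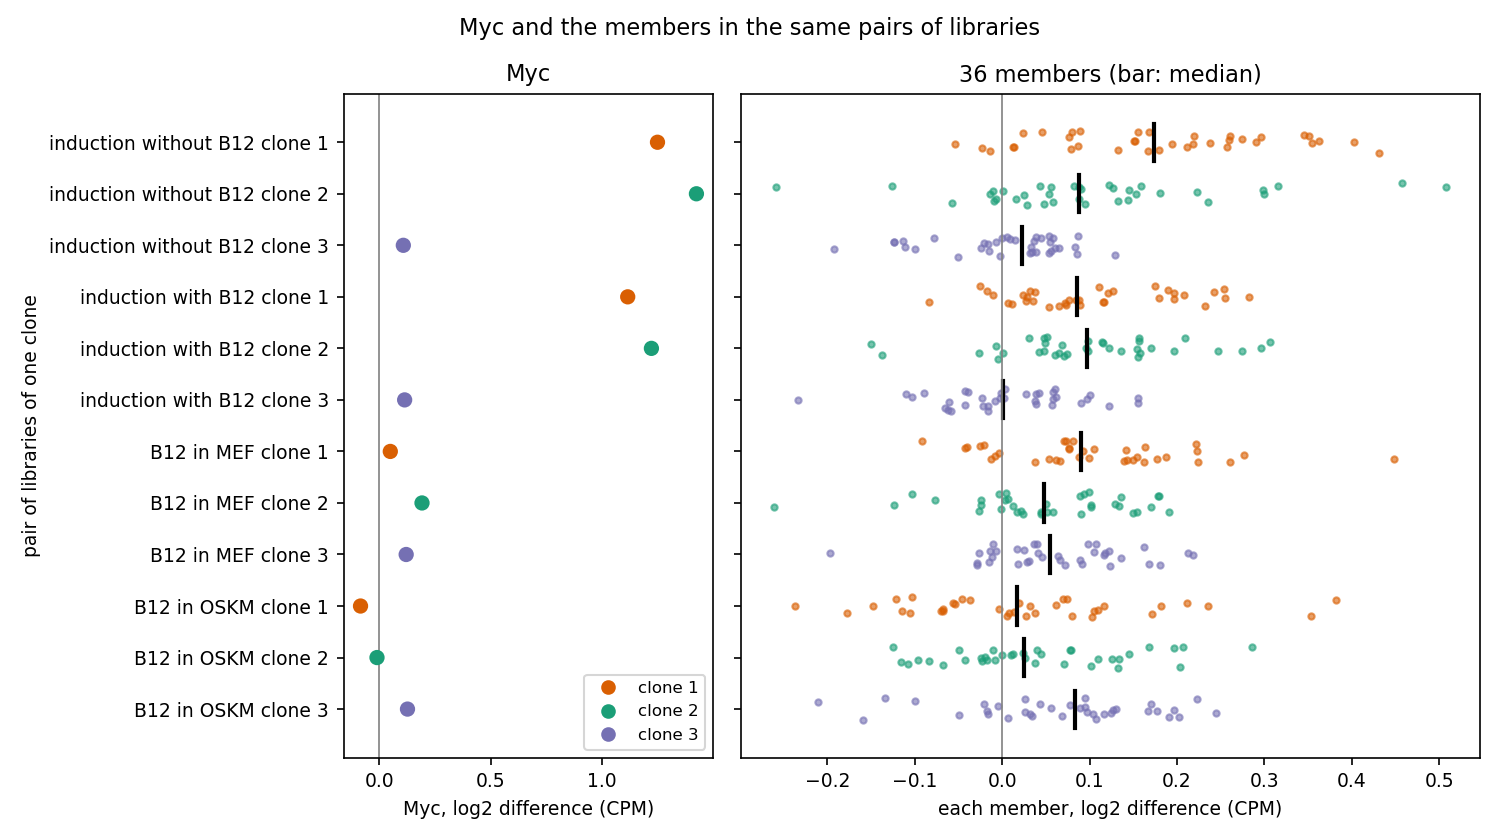
Log2 difference of Myc (left) and of each of the 36 members (right, with a black bar at the median) in 12 pairs of libraries of one clone, coloured by clone, with separate horizontal scales. Myc exceeds 1.1 in 4 induction pairs and is at 0.11 in both of clone 3, and the medians of the members run from 0.17 down to 0.001 over the 6 induction pairs.

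The B12 pairs were read in the same way. The medians of the members were 0.09, 0.05 and 0.06 in uninduced and 0.02, 0.02 and 0.08 in induced cells for clones 1, 2 and 3, and the Myc differences were 0.05, 0.19 and 0.12 and then -0.09, -0.01 and 0.13. The effect of B12 was also compared between the states. The interaction, the B12 effect in induced minus that in uninduced cells, passed for 0 members by edgeR and by DESeq2 and for 0% of all genes by edgeR, and 0 members had an unadjusted p under 0.05, beside 1.42% of all genes. Its median over the members was -0.03, with a range of -0.15 to 0.16, and a miss of the threshold does not show that the effects were equal.

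The rest of the pathway was read from 101 further ribosome biogenesis genes, of which 100 were tested. On induction 3 of the 100 passed, all higher, below the 4.46% of all genes that passed as higher and led by Naf1, an assembly factor of box H/ACA particles, with 0.16 ± 0.04 (adjusted p = 0.0358). Of the 100, 73 had a positive log2 fold change, beside 49.1% of all genes, and the median was 0.03. With B12, 1 of the 100 passed, below the 3.46% of all genes that passed as higher, namely Imp4, a protein of the U3 particle, with 0.16 ± 0.03 (adjusted p = 0.0153). Again 73 were higher, beside 44.9% of all genes, with a median of 0.02. In the induction pairs without B12 the medians of this list were 0.10, 0.06 and -0.0002 in clones 1, 2 and 3, and with B12 they were 0.05, 0.03 and 0.002. The difference between the 2 lists was not tested.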

How the data were processed

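RNA was measured in 12 libraries, 3 in each of 4 groups, each from the fibroblasts of 1 of 3 embryos (clones). The authors prepared strand-specific poly(A) libraries, aligned reads to mm10 (GRCm38) with STAR (version 2.5.2 per the labels) and counted read pairs per gene with featureCounts. How pairs with several matches were counted is not given in the sources used here. The deposited table holds unnormalized counts of each gene. Of 55573 identifiers, 55480 matched GENCODE M21 and 0 were blank. Library totals ranged from 56971244 to 79236795. No pair of libraries held identical counts. The reads carry no molecular identifiers, so amplification error is not covered by counting precision.

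From these counts, CPM were computed with TMM-scaled totals, and log2 CPM with a prior count of 2. Tests were quasi-likelihood F tests of edgeR 4.0.16 (R 4.3.3) on one fit of all 12 libraries with clone and group as terms, after filterByExpr by group (19174 genes), with Benjamini-Hochberg adjustment over all genes and a threshold of 0.05. An averaged comparison is the mean of the 2 corresponding contrasts. A further model let the induction effect vary by clone, with B12 nested in state, and its F test compared the clones. The scripts were tested on simulated data.

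The clone (replicate number) entered as a block, since every group holds 1 library of each embryo. Deviations from group means correlated across genes at 0.270 to 0.687 for 18 pairs of libraries of the same embryo and at no more than 0.170 for others.

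Alternatives were DESeq2 1.42.0, its size factors, library totals, other count filters, fewer libraries and no block. Values by library are given for Myc, for each member past the threshold in a comparison, and in each role for the member of highest level per length and those of smallest unadjusted p on induction and with B12. Genes outside the list were named from lists of the Myc family, the factors, the rest of the pathway and cell markers (always for the first 2, otherwise the largest changes past the threshold). The members and lists were chosen with earlier results of these data known. Promoter windows were taken from RefSeq on GRCm38.p6. Coordinates of genes are those of GENCODE M21 on GRCm38, 1-based.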

Additional observations from a re-analysis of the deposited data

Results flagged for a closer look

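The response of Myc to induction differed between clones, by the edgeR F test of clone by state, with an adjusted p of 0.000653. The mean log2 differences over both media were 1.18 in clone 1, 1.32 in clone 2 and 0.11 in clone 3, and all 6 pairs were higher when induced. None of the 36 ribosome biogenesis genes passed this test, with a smallest adjusted p of 0.162. Without clone 3 the adjusted p for Myc was 0.871, a comparison of the 2 remaining clones alone.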

How the results depend on the processing

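Calls among the 36 members were sensitive to the processing, while medians kept their sign. For induction without B12 the count of 0 became 2 by DESeq2, beside 2.57% of all genes, and 1 with no filter, beside 2.06%. It ranged from 0 to 5 over fits leaving out a clone. For the induction average the count of 6 became 11 with library totals, beside 2128 of 19174 genes. It became 1 without OSKM replicate 1, beside 3.95% of all genes, and ranged from 0 to 8 over fits leaving out a clone. For B12 in uninduced cells the count of 1 became 0 with DESeq2 size factors or no filter, 2 with only the libraries compared, and 0 in each fit leaving out a clone. The main fit called 1.38% of all genes in this comparison. The shares of these other fits are not given here, so the changes are not read as particular to the members. For the B12 average the count of 4 ranged from 0 to 1 over the fits leaving out a clone. Fits without a clone have 8 libraries, and the cause of the other changes was not tested. With library totals the median of the members moved from 0.07 to 0.10 for B12 in uninduced cells and from 0.06 to 0.08 for the B12 average.

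The fit with no replicate block gave 0 calls for the induction average, 0 for B12 in uninduced cells and 0 for the B12 average, against 6, 1 and 4 in the paired fit, and changed no other count. It called 0%, 0% and 0.469% of all genes in these comparisons. Over its 10 alternatives Dkc1 passed in 7 for induction (adjusted p 0.00252 to 0.426) and Nop16 in 2, and Bop1 passed in 7 for B12 (0.00350 to 0.330). The counts for induction with B12, for B12 in induced cells, for the interaction and for the difference between clones stayed at 0 in all alternatives run. Differences below about 0.1 on the log2 scale were near or under the reach of 3 clones, since standard errors of the averages were 0.03 to 0.07 among the members.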
